A study of Homo sapiens with 12 samples.

Results

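The comparison described here is the effect of an EZH2 inhibitor on xenograft tumours, taken as 6 libraries with the inhibitor against 6 without it. All 12 libraries of the series enter, chosen by treatment alone and not by any measured value. The tumours came from MDA-MB-231, an established human line of triple-negative breast cancer, injected in Matrigel into the mammary fat pad of mice, and injections began at a tumour volume of 100 mm3. The 6 libraries without the EZH2 inhibitor were 3 control tumours, given only the vehicle by the protocol and no treatment by the sample labels, and 3 p38i tumours, given the p38 MAP kinase inhibitor SB202190 at 1 mg/kg/day. The 6 libraries with it were 3 EZH2i tumours, given EPZ-6438 (tazemetostat, whose code the labels spell in 2 ways) at 10 mg/kg/day, and 3 combination tumours, given both compounds. Dosing ran on 5 days a week in every group. The p38 inhibitor was kept as a second, additive factor, so that each arm of 6 holds 3 tumours with and 3 without SB202190. All tumours are 1 cell line in mouse hosts, and the RNA is from whole tumours, so host cells may be in it. In such bulk RNA, fewer cells of a type and less RNA per cell cannot be told apart. The tumours carry separate numbers in the labels, so p-values measure the spread between tumours, as far as each number is a separate animal. Some tumours share the first part of their number, as control 1-1 and control 1-3 do, and always within a treatment group. What that part stands for is not known here, and the tests took such tumours as independent.

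EZH2 is the enzyme of Polycomb repressive complex 2 (PRC2), which puts methyl groups on lysine 27 of histone H3 and keeps developmental genes silent. PRC2 typically sits at CpG-rich promoters, together with its partners EED, SUZ12 and the RBBP proteins, and Polycomb repressive complex 1 (PRC1) binds the mark it leaves. Compounds such as EPZ-6438 block the enzyme without removing the protein, so derepression of silent genes is the usual readout, and the level of EZH2 mRNA is not a check of inhibition.

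No gene passed the test for the EZH2 inhibitor term, which was 0% of the 12514 genes tested with edgeR's quasi-likelihood test at a Benjamini-Hochberg adjusted p of 0.05. The smallest adjusted p was 0.577. At an unadjusted p under 0.05 there were 981 genes, which is 7.84% of those tested, with 475 higher (3.8%) and 506 lower (4.04%) in the libraries with the inhibitor. Limma-voom also called 0 genes, and DESeq2 called 11, which is 0.115% of the genes it gave an adjusted p. The 95% confidence interval of a gene's log2 fold change reached a median of 0.40 to either side. Changes smaller than that were mostly not detectable here. Larger changes could be missed as well, because the interval carries no adjustment for the 12514 tests. The median log2 fold change over all genes was 0.01, and 155 genes had a fold change beyond 2-fold in either direction.

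The 24 genes with the smallest p are described by their values, since none passed. Of these, 15 were higher and 9 lower with the inhibitor, and all 24 had the same sign in tumours with and without SB202190. The sign is no separate support, because a small p of an averaged term favours genes with like effects in both backgrounds. Of the 24, 11 had all 6 libraries of one arm outside the range of the other arm. Over all genes tested, the libraries of the arms stood apart in the higher direction for 0.224% of genes and in the lower direction for 0.168%. The choice by p of the same contrast favours genes whose arms stand apart, so nothing is read from the 11.

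Promoters are shown for 3 of these genes, because they differ in CpG content, the sequence feature that PRC2 targets share: H6PD and SGK1, with the smallest p in each direction, and EGR1, an early response gene. The sequences are RefSeq promoters on GRCh38.p14, running from 250 bases before to 50 bases after 1 annotated start of the gene. They read 5′ to 3′ on the gene's strand, with each CpG in capitals. Other starts of these genes were not examined, so the windows need not be the promoters in use in these tumours. H6PD lies on the plus strand of chromosome 1 at chr1:9239597-9239896, SGK1 on the minus strand of chromosome 6 at chr6:134318063-134318362, and EGR1 on the plus strand of chromosome 5 at chr5:138465229-138465528.
H6PD: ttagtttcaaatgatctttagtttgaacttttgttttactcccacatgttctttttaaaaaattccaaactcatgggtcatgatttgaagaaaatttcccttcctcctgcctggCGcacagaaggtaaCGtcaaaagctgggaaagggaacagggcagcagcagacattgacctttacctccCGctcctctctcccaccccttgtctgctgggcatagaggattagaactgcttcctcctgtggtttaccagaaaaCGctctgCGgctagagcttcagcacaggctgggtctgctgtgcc
SGK1: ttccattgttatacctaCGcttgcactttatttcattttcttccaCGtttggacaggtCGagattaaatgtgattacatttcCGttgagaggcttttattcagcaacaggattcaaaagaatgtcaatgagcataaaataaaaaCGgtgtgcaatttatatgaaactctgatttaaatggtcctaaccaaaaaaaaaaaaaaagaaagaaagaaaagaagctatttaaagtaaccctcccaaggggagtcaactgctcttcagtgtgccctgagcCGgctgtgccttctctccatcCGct
EGR1: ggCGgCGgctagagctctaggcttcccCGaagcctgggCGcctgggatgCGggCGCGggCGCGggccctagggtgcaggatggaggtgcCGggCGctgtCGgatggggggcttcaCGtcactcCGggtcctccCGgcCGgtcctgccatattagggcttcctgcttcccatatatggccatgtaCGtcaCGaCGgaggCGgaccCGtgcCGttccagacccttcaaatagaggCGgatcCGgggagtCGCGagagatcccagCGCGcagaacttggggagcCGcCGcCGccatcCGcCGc
The H6PD window holds 5 CpGs and the SGK1 window 7, against a median of 14 over 35114 RefSeq promoters of the same length. The EGR1 window holds 33, above the upper quartile of 28. A promoter was matched for 15 of the 24 genes, and their median was 26 CpGs. The median of 14 is over all RefSeq promoters and not over those of the genes tested, so nothing is read from the difference. The heat shock element core, GAANNTTC or TTCNNGAA on either strand, was in 3 of the 15 windows (FHOD1, FST and HRH1), and 13.5% of all promoters hold it. The half-site pair of the glucocorticoid receptor, ACANNNTGT, which reads the same on both strands, was in 0 of the 15, and 5.37% of all promoters hold it.

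H6PD, which makes NADPH inside the endoplasmic reticulum, had the smallest p. Its level in CPM (counts brought to a common library size with edgeR's TMM factors) was 238, 266 and 266 in the control tumours and 178, 209 and 196 in the p38i tumours. It was 152, 139 and 144 in the EZH2i tumours and 175, 147 and 133 in the combination tumours. All 6 tumours with the EZH2 inhibitor lay below all 6 without it, and the controls were the highest. The log2 fold change of H6PD was -0.59 with a standard error (SE) of 0.12, a 95% interval of -0.84 to -0.34 and an edgeR adjusted p of 0.577.

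SGK1 encodes a serum- and glucocorticoid-induced kinase. Its CPM was 36.2, 34.2 and 35.3 in the control tumours, 48.7, 49.4 and 44.3 in the p38i tumours, 60.6, 62.6 and 65.5 in the EZH2i tumours and 56.3, 61.6 and 65.0 in the combination tumours. The arms did not overlap, and the p38i tumours lay between the controls and the tumours with the EZH2 inhibitor. The log2 fold change of SGK1 was 0.59 (SE 0.12, 95% interval 0.34 to 0.84, edgeR adjusted p = 0.577).

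Further genes that separated the arms included signalling genes. EGR1, a transcription factor induced by growth factor signalling, ran from 25.4 to 52.8 CPM (median 41.1) without the inhibitor and from 55.0 to 68.4 (median 62.7) with it, a log2 fold change of 0.59 (SE 0.14). HRH1, the histamine H1 receptor, ran from 69.1 to 92.7 CPM (median 82.8) without and from 97.3 to 117 (median 111) with the inhibitor, at 0.42 (SE 0.11) on the log2 scale. For both genes the lowest tumour with the inhibitor was above the highest tumour without it.

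Among the genes that were lower, SRSF10, a splicing factor, ran from 597 to 722 CPM (median 663) without and from 404 to 584 (median 470) with it. LPPR2 ran from 13 to 23.3 CPM without the inhibitor, while the 6 tumours with it were all between 9.38 and 10.3. MUC6, a secreted mucin, was at low levels, from 2.37 to 5.00 CPM (median 3.19) without and from 0.314 to 1.75 (median 0.846) with the inhibitor, a log2 fold change of -1.84 (SE 0.39). In each of these 3 genes the arms did not overlap.

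**Figure D1:**
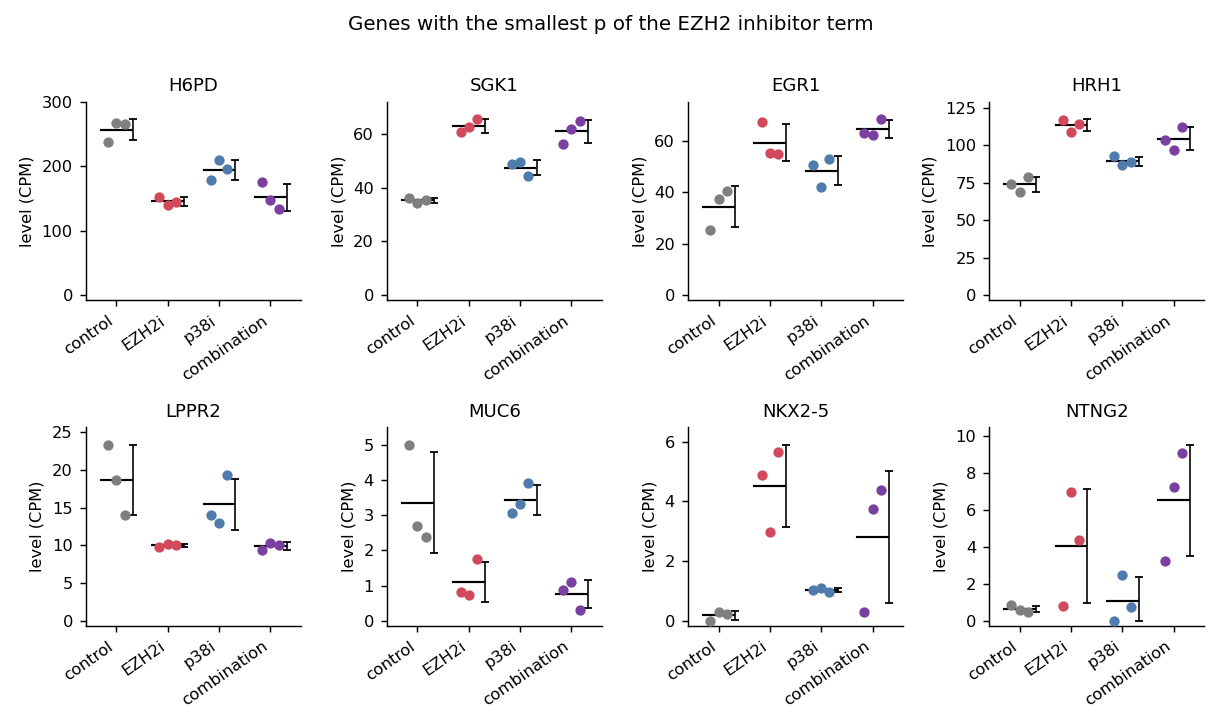
Level in CPM (linear axis) of 8 of the 24 genes with the smallest p of the EZH2 inhibitor term, by treatment group. Each point is 1 tumour, the horizontal line is the mean of 3 and the bar its SD. EZH2i and combination points lie below every control and p38i point for H6PD, LPPR2 and MUC6 and above them for SGK1, EGR1 and HRH1, while NKX2-5 and NTNG2 overlap in 1 tumour each.

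The 2 largest positive fold changes among the 24 were in genes nearly silent without the inhibitor. NKX2-5 is a homeobox factor of heart development. It is in the list of genes reported as repressed by EZH2, whose members were chosen with earlier results of these data known. Its CPM was 0, 0.300 and 0.237 in the control tumours, 1.02, 1.1 and 0.979 in the p38i tumours, 4.88, 2.98 and 5.67 in the EZH2i tumours and 0.293, 3.74 and 4.39 in the combination tumours. Of the 6 tumours with the inhibitor, 5 were above all 6 without it, and combination 8-1 was not. The log2 fold change of NKX2-5 was 2.45 (SE 0.61), with an edgeR adjusted p of 0.601. NTNG2, a netrin-family guidance protein, ran from 0 to 2.48 CPM without and from 0.813 to 9.10 with the inhibitor, and EZH2i 5-3 fell inside the lower range.

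Other genes among the 24 had matrix, signalling and enzyme roles. EFEMP1, an extracellular matrix glycoprotein, had a median of 16.1 CPM without and 40.2 with the inhibitor, at a log2 fold change of 0.94 (SE 0.21). SRPX, MOB3B, FST (follistatin, which binds activins), RP2, STS (steroid sulfatase), C4orf46, C17orf99 and MTUS2 were also higher, with log2 fold changes from 0.56 for C4orf46 to 1.86 for C17orf99. FBXO25, FHOD1 (a formin), HDGFRP2 and SCARNA22 were lower, from -0.59 for FBXO25 to -0.84 for FHOD1. Of these genes the arms stood apart for STS, HDGFRP2 and SCARNA22.

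DESeq2's 11 calls were 7 higher and 4 lower. They included 9 of the 24 genes, among them H6PD, SGK1, MTUS2, FHOD1, EFEMP1, EGR1, MOB3B and SRPX, and also CD82, a tetraspanin, and PTX3, a pentraxin. CD82 was at a mean of 56.3 CPM without and 23.2 with the inhibitor, and the p38i tumour in column 6 was the highest at 107. PTX3 was at 14.5 CPM without and 45.2 with, and combination 9-1 and 9-2 held 99.5 and 81.0. Adjusted p-values under the 25 alternatives ran from 0.00947, by DESeq2, to 1 for H6PD and from 0.0182 to 1 for SGK1.

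No gene of the inhibited enzyme or its complex passed the test. EZH2 mRNA ran from 104 to 213 CPM (median 143) without and from 120 to 162 (median 151) with the inhibitor, so the second range lay inside the first. The log2 fold change of EZH2 was -0.03 (SE 0.16, 95% interval -0.36 to 0.31), and that of MAPK14, the main p38 kinase gene, was 0.10 (SE 0.13). Among the 13 PRC2 subunit genes tested, 0 passed, and RBBP4, a histone-binding subunit, alone was under an unadjusted p of 0.05 with a log2 fold change of -0.44 (SE 0.16). RBBP7 was at 0.26 (SE 0.17) and EED at 0.20 (SE 0.14). Among 16 tested genes of PRC1 and of the demethylases that remove the same histone mark, 0 were under an unadjusted p of 0.05. RNF2, the PRC1 ubiquitin ligase, was at 0.26 (SE 0.13), RYBP at 0.20 (SE 0.11) and PCGF3 at -0.24 (SE 0.14).

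Developmental regulators that PRC2 often silences were low in these tumours. Of 103 such genes listed, 29 passed the filter on low counts, and 10 had no count in any library. Of the 29 tested, 7 were higher and 0 lower at an unadjusted p under 0.05, where 3.8% and 4.04% of all genes were. The median log2 fold change of the 29 was 0.24, beside 0.01 for all genes. A gene could pass the filter through the group where it was high, so the count was repeated without the filter: 93 genes then entered, of which 8 were higher and 1 lower, beside 3.07% and 3.35% of all 21125 genes. No member passed the adjusted threshold in either version. Within the backgrounds, 3 were higher and 3 lower in EZH2i against control (over all genes 7.43% and 7.29%), and 5 were higher and 0 lower in the combination against p38i (over all genes 3.52% and 4.28%).

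The 7 genes were EOMES, IRX2, DLX4, NEUROD2, TWIST1, SOX9 and ZIC2, all transcription factors. EOMES, a T-box factor of mesoderm and lymphocytes, ran from 0.489 to 5.45 CPM (median 3.32) without and from 3.81 to 14.8 (median 7.94) with the inhibitor, a log2 fold change of 1.29 (SE 0.43, edgeR adjusted p = 0.601). IRX2, an Iroquois homeobox factor, ran from 1.96 to 11.3 CPM (median 6.13) and from 7.71 to 25.4 (median 10.5), at 1.05 (SE 0.36). DLX4, a distal-less homeobox factor, ran from 0.682 to 2.76 CPM (median 1.07) and from 2.24 to 3.77 (median 2.96), at 1.08 (SE 0.39). The ranges of all 3 overlapped between the arms.

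TWIST1, a driver of mesenchymal change, had a log2 fold change of 1.07 (SE 0.44) from means of 3.36 and 7.19 CPM, and NEUROD2, a neuronal factor, of 1.07 (SE 0.41) from 1.65 and 3.6 CPM. SOX9 and ZIC2 were expressed at higher levels and differed less, at 0.24 (SE 0.10) and 0.36 (SE 0.16) on the log2 scale. TWIST1 was at 1.12 without and 1.02 with SB202190. All 7 were above 0 in both backgrounds, which their choice by a low p of the averaged term favours. The levels of EOMES, IRX2, DLX4, TWIST1 and NEUROD2 were a few CPM in most tumours.

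Of 36 genes listed as reported to be repressed by EZH2, 26 were tested. At an unadjusted p under 0.05, 3 were higher and 0 lower, where 3.8% and 4.04% of all genes were. The median log2 fold change was -0.02, with -0.12 in EZH2i against control and 0.20 in the combination against p38i. The sign of the averaged median was kept in 17 of 25 alternatives, whose medians ran from -0.21 to 0.15. Among those above 0 were the medians with no filter on low counts (0.07), without the p38i library of column 6 (0.04) and without control 1-1 and control 1-3 (0.11). Besides NKX2-5 the 3 genes were DKK1, a secreted inhibitor of Wnt signalling, at 0.94 (SE 0.29), and BMP2 at 0.34 (SE 0.15). DKK1 ran from 19.1 to 123 CPM without and from 59.0 to 172 with the inhibitor, and the control tumours 1-1 and 1-3 held the lowest values, 19.1 and 32.7.

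**Figure D2:**
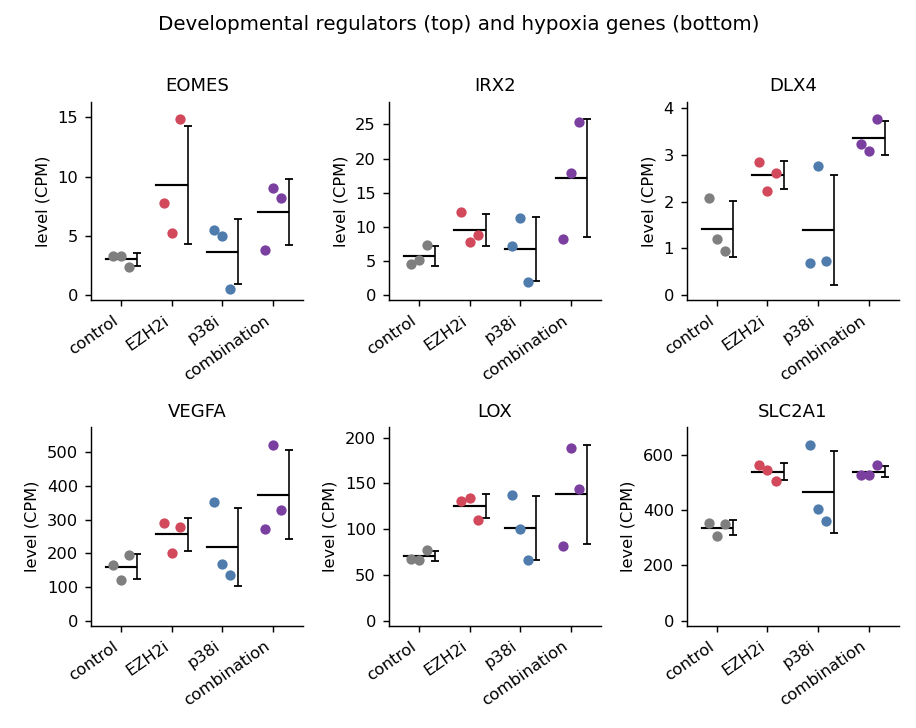
Level in CPM (linear axis) of 3 developmental regulators, EOMES, IRX2 and DLX4, and 3 hypoxia genes, VEGFA, LOX and SLC2A1, by treatment group. Each point is 1 tumour, the line is the mean of 3 and the bar its SD. The means of the EZH2i and combination groups are above those of control and p38i for each gene, and the ranges of the arms overlap in all 6.

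Nearly all hypoxia and glycolysis genes tested had values above 0, though none passed. Of 31 tested, 29 had a log2 fold change above 0, and 0 passed, while 51.7% of all genes were above 0. At an unadjusted p under 0.05, 6 were higher and 0 lower, beside 3.8% and 4.04% of all genes. The median was 0.22 for the averaged term, 0.25 in EZH2i against control and 0.20 in the combination against p38i, and 7 and 2 genes were higher at an unadjusted p under 0.05 in the respective comparison, with 1 and 0 lower. Over all genes 7.43% and 3.52% were higher at that p. Without the p38i library of column 6, which had the lowest share of counts in the list, the median of the averaged term was 0.14 and 4 genes were higher. The summed share of counts of the list ran from 1.12% to 1.84% without and from 1.42% to 1.96% with the inhibitor, so the arms overlapped.

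VEGFA, the vascular growth factor, was at 166, 123 and 194 CPM in the control tumours, 352, 168 and 137 in p38i, 291, 201 and 278 in EZH2i and 272, 522 and 330 in the combination. Its log2 fold change was 0.72 (SE 0.23, edgeR adjusted p = 0.601), and 1 p38i tumour, 3-3, was as high as the tumours with the EZH2 inhibitor. LOX, a collagen cross-linking enzyme, was at 0.64 (SE 0.20) and SLC2A1, the glucose transporter GLUT1, at 0.44 (SE 0.14). SLC2A1 ran from 506 to 564 CPM in the tumours with the inhibitor and from 305 to 635 in those without, with p38i 3-3 again the highest. PFKP and PFKFB4, which act in and on glycolysis, were at 0.42 (SE 0.14) and 0.41 (SE 0.18), and EGLN1, an oxygen-sensing hydroxylase, was at 0.29 (SE 0.13).

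Genes of mesenchymal character and secreted factors held a few members at low p. Of 40 mesenchymal and invasion genes tested, 5 were higher and 0 lower at an unadjusted p under 0.05, beside 3.8% and 4.04% of all genes, with a median of 0.15. In EZH2i against control 9 were higher and 6 lower (median 0.15), beside 7.43% and 7.29% of all genes. In the combination against p38i 2 were higher and 1 lower (median 0.21), beside 3.52% and 4.28% of all genes. The 5 of the averaged term were COL4A1, a basement membrane collagen, at 0.45 (SE 0.13), CD44, a hyaluronan receptor, at 0.42 (SE 0.14), LOX, TWIST1 and SNAI2. Of 15 cytokine and chemokine genes tested, VEGFA and CXCL8 were higher, CXCL8 (a chemokine that draws neutrophils) at 0.60 (SE 0.26), and CCL28 was lower at -0.64 (SE 0.26). Of 22 immediate early genes, EGR1, NR4A2 at 0.36 (SE 0.16) and SPRY2, a feedback inhibitor of receptor kinases, at 0.33 (SE 0.12) were higher and 0 lower. Their median was 0.27 in EZH2i against control, with 6 higher and 1 lower. It was -0.009 in the combination against p38i, with 2 higher and 2 lower. The median of the averaged term was 0.14, and 0.04 without control 1-1 and control 1-3.

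Most interferon-stimulated genes tested had values below 0. Of 38 tested, 27 were below 0, and 0 were higher and 3 lower at an unadjusted p under 0.05, with a median of -0.11. The 3 were XAF1, a promoter of apoptosis, at -0.82 (SE 0.29), IFITM2 at -0.45 (SE 0.16) and IFI6 at -0.45 (SE 0.21). Over all genes 4.04% were lower at that p, and 51.7% were above 0. In EZH2i against control the list's median was -0.19, with 3 higher and 3 lower, beside 7.43% and 7.29% of all genes. In the combination against p38i it was -0.04, and 17 of the 38 were above 0. There 0 were higher and 1 lower, beside 3.52% and 4.28% of all genes. In antigen presentation HLA-E was at -0.38 (SE 0.13), PSMB9, an immunoproteasome subunit, at 0.49 (SE 0.22) and ERAP1 at -0.29 (SE 0.15), and the median of 24 genes was -0.05.

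Cell cycle, chaperone and epithelial genes had medians of opposite sign in the 2 backgrounds. The 30 G2/M genes had a median of 0.60 in EZH2i against control and -0.17 in the combination against p38i. Of them 2, CCNB2 at 0.48 (SE 0.20) and CDK1 at 0.42 (SE 0.18), were higher at an unadjusted p under 0.05 in the averaged term. Over all genes 3.8% were higher and 4.04% lower at that p in the averaged term. KIF11, a mitotic motor, was at 0.36 (SE 0.18). The list's share of counts was lowest in control 1-1 (0.209%) and control 1-3 (0.288%) and highest in the p38i tumour of column 6 (0.655%). Without both of those controls the list's median in the averaged term was -0.05, against 0.21 with them, and without column 6 it was 0.37. In the S phase list, CCNE1 at 0.59 (SE 0.26) and PCNA at 0.47 (SE 0.22) were higher, and MCM6 was at 0.27 (SE 0.13). Of 22 CDK inhibitor and p53 target genes, BBC3 at -0.60 (SE 0.22) and BAX at -0.29 (SE 0.13), both promoters of apoptosis, were lower, and GDF15 was at -0.48 (SE 0.30).

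The 25 genes of the heat shock list, chaperones with the factors HSF1 and HSF2 among them, had a median of 0.47 in EZH2i against control. Their median was -0.19 in the combination against p38i. In the first comparison 13 were higher and 1 lower at an unadjusted p under 0.05, and in the second 0 were higher and 5 lower. Over all genes 7.43% were higher and 7.29% lower in the first, and 3.52% and 4.28% in the second. CHORDC1 at 0.47 (SE 0.18) and AHSA1 at 0.30 (SE 0.13), both partners of HSP90, and HSPH1 and HSPA1B were higher at an unadjusted p under 0.05 in the averaged term. Without control 1-1 and control 1-3 the list's median was -0.03, and 0 members were under 0.05.

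Of 19 genes listed as glucocorticoid-responsive, 9 were above 0 and 10 below. SGK1 alone was higher at an unadjusted p under 0.05 and 4 were lower, where 3.8% and 4.04% of all genes were. Of these 4, KLF9 was at -0.87 (SE 0.34), METTL7A at -0.76 (SE 0.32), FKBP5, a binding partner of the receptor, at -1.24 (SE 0.54) and PER1, a clock gene, at -0.55 (SE 0.26) in the averaged term. FKBP5 was at 193, 142 and 84.6 CPM in the control tumours and between 17.1 and 58.2 CPM in all 9 others. The averaged fold of FKBP5 is thus carried by the controls: it was -2.69 in EZH2i against control and 0.14 in the combination against p38i. Without control 1-1 and control 1-3 the list's median was 0.10, against -0.04 with them, with 2 members higher and 0 lower. The epithelial genes had medians of -0.67 and 0.22 in these comparisons, with 0 of 19 under an unadjusted p of 0.05 in the averaged term. Their median there was -0.22, and 0.23 without those 2 controls. Of the epithelial genes, TJP1 was at -0.19 (SE 0.11), KRT8 at -0.27 (SE 0.19) and EPCAM at -0.45 (SE 0.34).

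**Figure D3:**
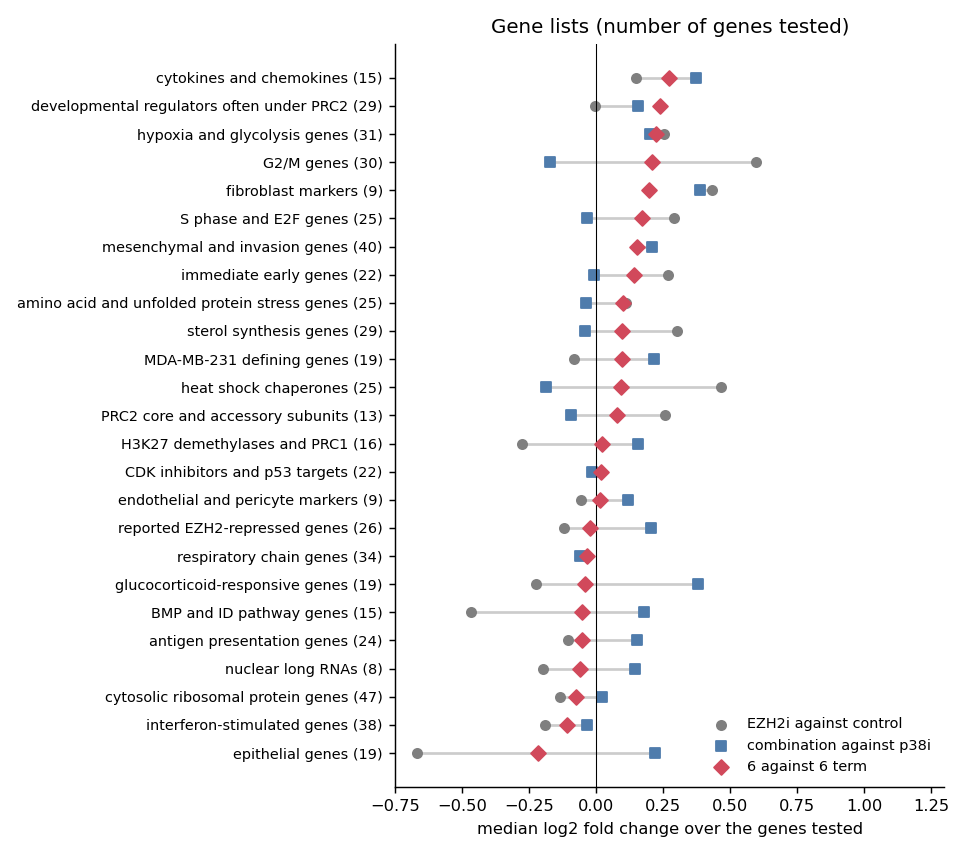
Median log2 fold change over the tested genes of the 25 lists with at least 8 tested, for the averaged EZH2 inhibitor term (red diamonds) and for EZH2i against control (grey circles) and the combination against p38i (blue squares). The medians of the 2 backgrounds had opposite signs in 19 lists and were both above 0 in 4, among them hypoxia and glycolysis (0.25 and 0.20), and both below 0 in 2.

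Metabolic and housekeeping lists held few genes at low p. In BMP signalling NOG, a BMP antagonist, was at 0.85 (SE 0.39), SMAD9 at -0.45 (SE 0.25) and BMP4 at -0.47 (SE 0.29), with 0 of 15 under 0.05. In sterol synthesis LSS was at -0.38 (SE 0.14), INSIG1 at 0.59 (SE 0.25) and STARD4 at 0.55 (SE 0.26). In amino acid and unfolded protein stress ATF5 was at -0.62 (SE 0.19), EDEM1 at 0.67 (SE 0.25) and SDF2L1 at -0.47 (SE 0.19). In that list 2 of 25 were higher and 2 lower at an unadjusted p under 0.05, where 3.8% and 4.04% of all genes were. Among 34 respiratory chain genes COX6A1, a cytochrome c oxidase subunit, was higher in all 6 tumours with the inhibitor (188 to 283 CPM) than in all 6 without it (149 to 185 CPM), at 0.37 (SE 0.11). UQCRB, a subunit of complex III, was at -0.28 (SE 0.13). Of 47 ribosomal protein genes, RPL5 was at -0.24 (SE 0.11), RPL14 at -0.22 (SE 0.11) and RPL13 at -0.25 (SE 0.13). Among long noncoding RNAs MALAT1 was at -0.41 (SE 0.18), HOTAIR, which is known to bind PRC2, at 1.33 (SE 0.66) from under 6 CPM in every tumour, and LINC00657 at 0.19 (SE 0.13).

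The averaged term combines 2 comparisons, 1 in each background. EZH2i against control called 27 genes (0.216%), of which 11 rose (0.0879%) and 16 fell (0.128%), and the combination against p38i called 0 (0%). In the latter comparison 977 genes were under an unadjusted p of 0.05, of which 441 were higher (3.52%) and 536 lower (4.28%). The smallest edgeR adjusted p there was 0.407, and limma-voom called 0 and DESeq2 7. The 2 comparisons share no library. Across genes their log2 fold changes had a Pearson r of -0.06 and a Spearman rho of -0.07, and 48.3% of genes had the same sign, a description over genes that are not independent replicates. Of the 27 genes called in EZH2i against control, 5 had the same sign in the combination against p38i (H6PD, SGK1, SRPX, SLC37A2 and LGALS9), and 2 of these, H6PD and SGK1, were under an unadjusted p of 0.05 there. Of the other 22, 5 were under 0.05 with the opposite sign.

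**Figure D4:**
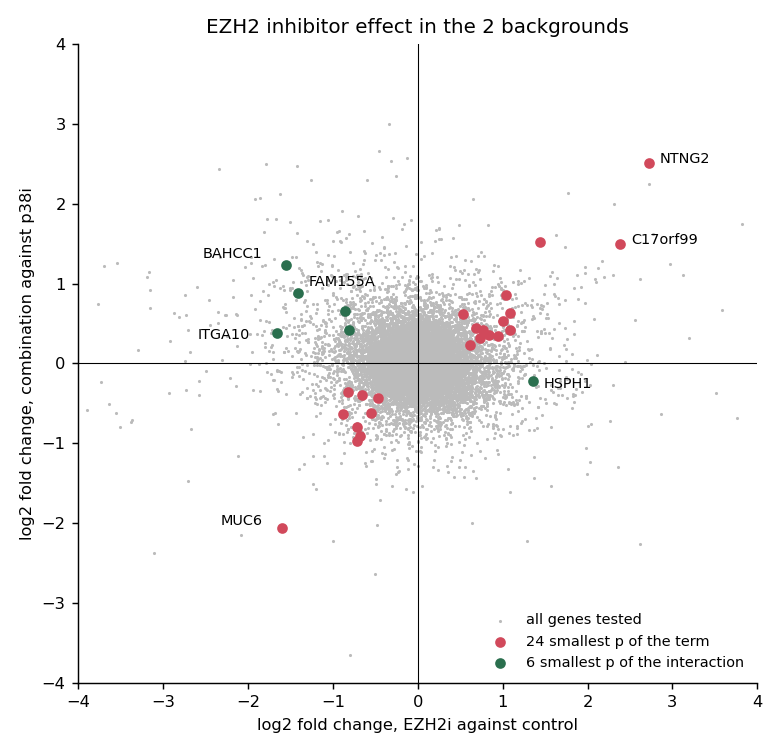
Log2 fold change of EZH2i against control (horizontal) and of the combination against p38i (vertical) for the 12514 genes tested, with 11 genes outside the plotted range of 4 to either side. The 24 genes with the smallest p of the averaged term (red) have the same sign in both, which that choice favours, and the 6 with the smallest interaction p (green) have opposite signs.

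The difference of the EZH2 inhibitor effect between the backgrounds passed for 3 genes, 0.024% of those tested. FAM155A, an auxiliary subunit of a sodium leak channel, was at 36.6, 33.9 and 43.4 CPM in the control tumours and 15.4, 11.9 and 15.7 in EZH2i, but at 12.9, 13.2 and 13.5 in p38i and 24, 27.5 and 21.3 in the combination. EPZ-6438 thus went with lower values without SB202190 and with higher values on top of it, and the groups did not overlap in either comparison. The difference of the log2 fold changes was 2.30 (SE 0.28, edgeR adjusted p = 0.00815).

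ITGA10, a collagen-binding integrin, was at 314, 256 and 231 CPM in the control tumours and between 68.9 and 115 CPM in all 9 others. Its difference was 2.04 (SE 0.26, edgeR adjusted p = 0.00815). HSPH1, a chaperone of the HSP110 family, was at 127, 112 and 135 CPM in the control tumours, 305, 217 and 220 in p38i, 322, 326 and 312 in EZH2i and 195, 211 and 233 in the combination. Its difference was -1.58 (SE 0.22, edgeR adjusted p = 0.0142). For ITGA10 and HSPH1 the 3 control tumours stood apart from all others.

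The next genes by p were CMTM8, ETV6 (a transcriptional repressor) and BAHCC1, which binds the histone mark of PRC2, with edgeR adjusted p-values of 0.0635, 0.0671 and 0.0671. In all 3 the control group had the highest mean. The control tumours were at 172, 186 and 202 CPM of ETV6, against 85.5 to 138 in the other 9. The averaged log2 fold changes of FAM155A, ITGA10 and HSPH1 were -0.27 (SE 0.34), -0.65 (SE 0.33) and 0.57 (SE 0.24), and they describe neither background. With the p38i libraries of columns 5 and 6 left out, HSPH1 alone passed, and with control 1-1 and control 1-3 left out FAM155A was the 1 of the 3 that did.

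**Figure D5:**
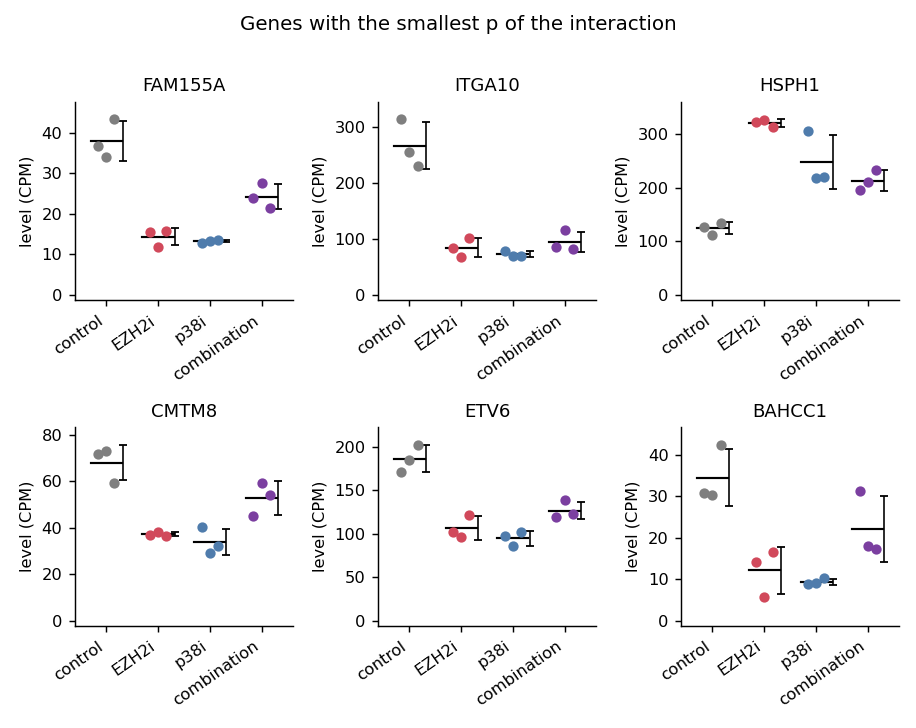
Level in CPM (linear axis) of the 6 genes with the smallest interaction p, by treatment group. Each point is 1 tumour, the line is the mean of 3 and the bar its SD. The control tumours are the highest for FAM155A, ITGA10 and ETV6 and the lowest for HSPH1. For CMTM8 combination 9-1 (59.4 CPM) and for BAHCC1 combination 8-1 (31.4 CPM) reach the lower end of the control range.

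No gene passed the test that sets the 2 inhibitors against each other. The test of the EZH2 inhibitor term against the p38 inhibitor term called 0 genes (0%), with a smallest edgeR adjusted p of 0.999. In it 374 of 12514 genes were under an unadjusted p of 0.05, and limma-voom and DESeq2 called 0 each. For the p38 inhibitor term itself edgeR called 0 genes, with 916 of 12514 under an unadjusted p of 0.05. The values above are therefore not shown to be particular to EPZ-6438.

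Genes seen in only 1 arm were few and faint. Over all 25369 genes of the table, 27 (0.106%) had no count in the 6 libraries without the inhibitor and a count in at least 4 of those with it, and 24 (0.0946%) showed the reverse. The former had at most 7 counts in all, and PITX3, a homeobox factor of lens and midbrain, had its 7 counts spread over 6 of 6 libraries. PITX3 was singled out after its values were seen, and no fold is given at such counts.

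The libraries held 2208771 to 4467942 counts and 16389 to 17549 detected genes. Spearman correlations between libraries were 0.939 to 0.979 within groups and 0.914 to 0.976 between them. Control 1-1 and control 1-3 stood apart on the first principal component (32.6% of the variance), and the p38i library of column 6 on the second (22.6%). Without these 2 controls 0 genes passed for the averaged term and 549 were under an unadjusted p of 0.05, and EZH2i against control then called 0 genes in place of 27. That fit has 1 control library, assumed to vary like the other groups, and 860 genes were under an unadjusted p of 0.05 in it. Of the genes that mark the line, VIM had 213551 and CAV1 56675 counts over all libraries. Of 19 genes that define it by presence or absence CD44, S100A4 at 0.18 (SE 0.12) and SPARC at 0.40 (SE 0.26) had the smallest p. Of the genes the line is known to lack or hold at low levels, ESR1 had 223 counts and PGR 174 over all 12 libraries. CDH1 and EPCAM are also among these genes. CDH1 had 712 counts, and EPCAM ran from 32.3 to 101 CPM without and from 24 to 65.1 CPM with the EZH2 inhibitor.

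Markers of other cell types were measured beside the results. The hosts were mice, while the counts are per human gene symbol on the hg19 build. Host RNA can enter them only through reads that aligned to human genes. The shares therefore do not measure how many host cells a tumour held. In the p38i library of column 6, skeletal muscle markers made up 0.221% of counts, against 0.0064% to 0.024% in the other 11. The 5 muscle genes tested had a median log2 fold change of -3.44, and without that library -0.72; for MYH1, a muscle myosin, it was -4.96 with and -2.83 without it, for TNNI2 -4.94 and -1.99, and for TTN -1.60 and -0.49. Fibroblast markers made up 0.029% to 0.0984% of counts without and 0.0552% to 0.116% with the EZH2 inhibitor. POSTN, a fibroblast matrix protein, was at -2.81 (SE 0.90), with 61.2 CPM in control 1-1 and at most 12.7 elsewhere, while FBLN1 was at 0.88 (SE 0.49) and COL1A1 at 0.49 (SE 0.28). The share of macrophage markers ran from 0.00541% to 0.0100% without and from 0.0064% to 0.00911% with the inhibitor, with EMR1 at 0.57 (SE 0.45), AIF1 at -0.54 (SE 0.44) and LAPTM5 at 0.27 (SE 0.23).

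Endothelial and pericyte markers ran from 0.0157% to 0.0323% and from 0.0222% to 0.0375%, with PECAM1 at -0.30 (SE 0.29), FLT1 at 0.23 (SE 0.28) and CSPG4 at 0.17 (SE 0.21). Adipocyte markers were at or under 0.00222% in every library, with CFD at -0.39 (SE 0.30) and PPARG at -0.18 (SE 0.42). Erythroid markers were at or under 0.00231%, with HBB at 0.23 (SE 0.70). Of 8 neutrophil markers 0 passed the filter, and 4 had no count in any library. The part of these cells in the results was not tested.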

How the data were processed

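RNA from 12 tumours was sequenced, 3 per treatment group. The submitters' processing notes list Trim Galore 0.5.0 for read trimming, STAR 2.6.0 for alignment and the hg19 build. The authors deposited whole-number read counts per gene symbol, with no scaling recorded. The counting program, annotation, use of strand and any removal of mouse reads are not given in the sources used here, so overlapping and antisense genes cannot be told apart. QuantSeq, which reads transcript ends, and the SMARTer chemistry for mRNA both appear in the labels. The table's 3 lines without a gene symbol, all at 0 counts, were dropped.

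Columns were joined to samples by the header numbers in the labels. Both p38i samples 3-4 and 4-2 give column 5 and no sample gives column 6, so these columns were used as p38i replicates without tumour numbers, column 6 by elimination. Among library pairs, none held identical values.

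Genes were filtered with filterByExpr on the 4 groups, which kept 12514 of 25369, and scaled by TMM. The edgeR 4.0.16 quasi-likelihood test (R 4.3.3, robust) was fitted to all 12 libraries with additive terms for both inhibitors, and a model with 1 term per group gave EZH2i against control, the combination against p38i and their difference. Tests were two-sided, with Benjamini-Hochberg adjustment over all genes tested. Standard errors were computed from the F statistic. The additive fit was tested on simulated data. Alternatives were limma 3.58.1 (voom), DESeq2 1.42.0, other scalings and filters, each library left out, and each background alone.

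The text names the 24 genes with the smallest p of the EZH2 inhibitor term (none passed), in each list the 3 members with the smallest p, EZH2 and MAPK14, and the 6 genes with the smallest interaction p. A few genes that this rule picks are not reported here. A few further list members were named for being under an unadjusted p of 0.05. The members and the 30 lists were chosen with earlier results of these data known. CPM values are not divided by gene length, so levels were not compared between genes. RefSeq promoters on GRCh38.p14 were matched by symbol or synonym.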

Additional observations from a re-analysis of the deposited data

Results flagged for a closer look

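Of 80 groups of 6 libraries tested for a value far from the others, 4 held one, and chance gives about 1 in 20. NTNG2 was at 2.484 CPM in the p38i library of column 5, the highest of the 6 libraries without the EZH2 inhibitor. Skeletal muscle markers made up 0.221% and erythroid markers 0.002% of counts in the p38i library of column 6, the highest of those 6. Endothelial and pericyte markers made up 0.0375% of counts in EZH2i 5-4, the highest of the 6 libraries with the inhibitor.

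The EZH2 inhibitor effect differed between tumours with and without SB202190 for 3 genes by edgeR's interaction test. The differences of log2 fold changes (with SB202190 minus without) were 2.30 for FAM155A, 2.04 for ITGA10 and -1.58 for HSPH1.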

How the results depend on the processing

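The averaged EZH2 inhibitor term called 0 genes with edgeR under every other scaling and filter, with limma-voom, and with each library left out (lowest and highest 0). It called 11 with DESeq2. A fit of only the 6 libraries without SB202190, which sets EZH2i against control and averages nothing, called 4. These were ITGA10, HSPH1, CXCR4 and FKBP5, and the fit of only the 6 libraries with SB202190 called 0. EZH2i against control called 27 genes, but 232 with DESeq2, 16 with limma-voom, 114 with no filter, 7 without columns 5 and 6, and 0 without control 1-1 and control 1-3, an alternative chosen after seeing the data. Scaling by library totals gave 18, with 10 higher and 8 lower against 11 and 16. Leaving out 1 library gave 2 (EZH2i 5-4 or 6-1) to 125 (control 2-1), with 4 without control 1-3 and 7 without control 1-1. The combination against p38i called 7 with DESeq2 and 1 with no filter. The interaction called 3 genes, but 226 with DESeq2, 70 with no filter, 1 without columns 5 and 6, 4 without those controls, and 2 to 42 with 1 library left out (42 without EZH2i 5-3). No paired analysis was possible because the tumour numbers are not shared between groups. The cause of these shifts was not tested.

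Of 2699 values of named genes under alternatives, 37 changed sign. In the 6 libraries with SB202190 alone these were FAM155A (0.89), ITGA10 (0.39), HSPH1 (-0.21), CMTM8 (0.66), ETV6 (0.43), BAHCC1 (1.24), METTL7A (0.22), KRT8 (0.14), EPCAM (0.28), STARD4 (-0.034), PPARG (0.48) and MAPK14 (-0.083). In the 6 without it they were EZH2 (0.27), EED (-0.013), BAX (0.021), LINC00657 (-0.12) and LAPTM5 (-0.25). EZH2 was 0.21 without columns 5 and 6, and CMTM8 was 0.17 and EPCAM 0.065 without control 1-1 and control 1-3. Leaving out 1 library in turn gave both signs for EZH2 (-0.11 to 0.098), MAPK14 (-0.016 to 0.18), CMTM8 (-0.24 to 0.0096), BAHCC1 (-0.44 to 0.19), HBB (-0.19 to 0.94) and PPARG (-0.42 to 0.10). Depth was 2208771 to 4467942 counts, so genes near 1 CPM rest on a few counts per library.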
